A study of Mus musculus with 19 samples.

Results

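The members were 133 L1 subfamilies, out of 1071 transposable element (TE) subfamilies counted in RNA-seq libraries of mouse bone marrow. They were every row of the deposited TE counts whose family is L1 and whose class is LINE. The rule reads names and no measured value, but it was set with earlier results of these data known. Of the 133, 6 have names that start with L1Md (L1Md_A, L1Md_F, L1Md_F2, L1Md_F3, L1Md_Gf and L1Md_T) and 127 do not. The 127 others were grouped by the start of the name into 12 rows of L1_ and L1VL names, 21 Lx rows, 85 L1M rows, 2 L1P rows and 7 rows of HAL1 and other names. Case matters here, since 6 rows that start with L1MD, with a capital D, are among the L1M rows and are not L1Md. The libraries from 4-month-old animals list 133 L1 rows, those of Cd11b cells at 18 months 131 and those of LK cells 132, and 131 rows are in all 3 lists.

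L1 elements are retrotransposons of the LINE class, which copy themselves through an RNA intermediate and encode an RNA-binding protein and a protein with endonuclease and reverse transcriptase activity. L1Md is the youngest mouse lineage, and its A, T (Tf) and Gf subfamilies hold copies that can still move, while Lx spread early in the murine lineage and L1M subfamilies are ancient remnants shared among mammals. Most L1 copies are truncated, and many lie in introns or untranslated regions of genes, so that an L1 read can come from a gene's own transcript as well as from an L1 promoter. In somatic cells L1 copies are kept silent by DNA methylation, by methylation of histone H3 at lysine 9, which EHMT1, EHMT2 and SETDB1 carry out, and by the HUSH complex.

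The study compared bone marrow cells of mice labelled MT, for mutant Asxl1, and WT, for wild type. Asxl1 encodes a chromatin regulator whose mutations are found in clonal hematopoiesis and in myeloid leukemias, and the title of the series names a complex of mutant ASXL1 with EHMT. The 19 libraries form 6 groups. Myeloid cells sorted for Cd11b came from animals of 4 months (young, 3 MT and 4 WT libraries) and of 18 months (old, 3 MT and 3 WT). LK cells, which are lineage-negative and carry c-Kit and so hold progenitors and stem cells, came from animals of 18 months (3 MT and 3 WT). The labels give neither the allele, nor what drives it, nor sex, litter or sequencing run. They do not say that replicates are separate animals, so p-values measure only the spread between these libraries, which may be technical. In bulk RNA a change in the share of a cell type and a change in RNA per cell cannot be told apart.

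A library held 26251822 to 68260809 gene counts in all and 203132 to 639934 L1 counts. The sorting markers followed the labels. Itgam, which encodes CD11b, stood at 1478 to 2827 CPM (counts per 1000000 gene counts) in the Cd11b libraries and at 57.5 to 101 CPM in the LK libraries. The libraries of 4 months stand apart from those of 18 months in more than age. The row of 7SK, a short nuclear RNA without a poly(A) tail, took 6.12 to 11.9 counts per 1000 gene counts in the young libraries and 0.00333 to 0.00537 at 18 months, and the nuclear transcript Malat1 took 5878 to 8616 CPM in the young libraries and 394 to 790 CPM at 18 months. Of the 7 young libraries, 5 hold the X-inactivation transcript Xist, while MT replicate 3 and WT replicate 4 hold the Y-linked Ddx3y instead, as do all libraries of 18 months. A difference between young and old libraries can therefore not be told apart from these differences in kind of library and in sex.

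The L1 sum set the young libraries apart from all others. It was 17.9, 16.4 and 21.8 counts per 1000 gene counts in young MT replicates 1 to 3 and 18.3, 15.9, 15.6 and 24.0 in young WT replicates 1 to 4. In old Cd11b cells it was 6.27, 6.33 and 6.13 in MT and 6.11, 6.49 and 6.50 in WT. In LK cells it was 7.68, 7.68 and 7.44 in MT and 6.80, 6.54 and 6.38 in WT. The young groups overlapped with each other, the old groups overlapped, and the LK groups did not, with every MT library above every WT library. The 2 highest young values belong to the libraries with Ddx3y.

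**Figure D1:**
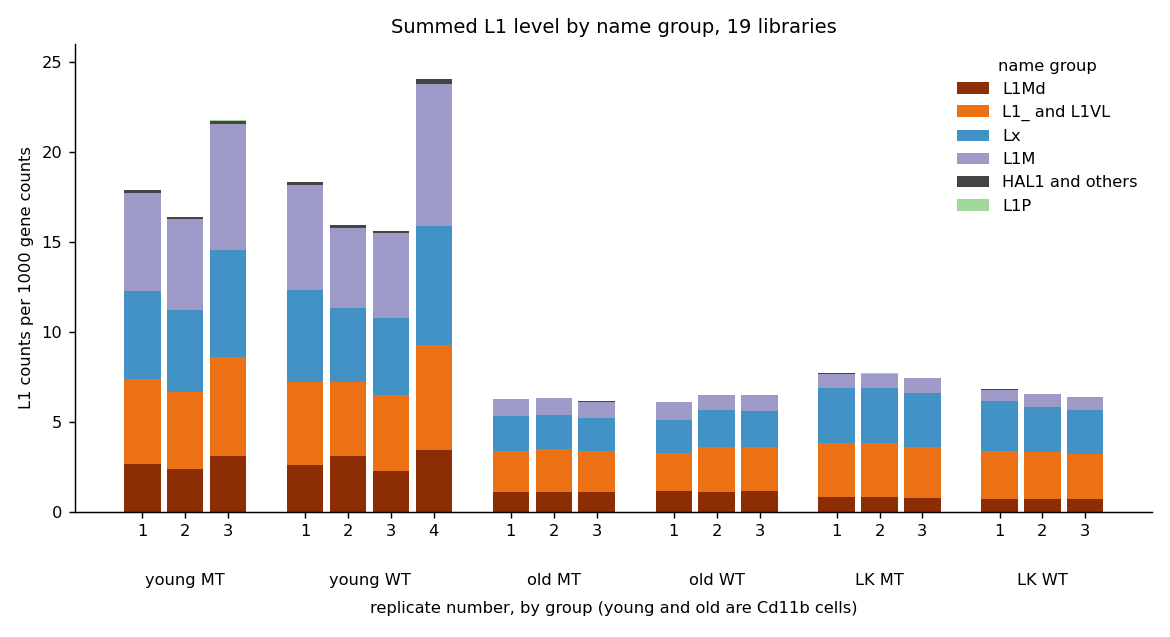
L1 counts per 1000 gene counts (vertical axis) in each of the 19 libraries, stacked by name group, with the replicate number and group on the horizontal axis. Young libraries reach 15.6 to 24.0, old Cd11b libraries 6.11 to 6.50 and LK libraries 6.38 to 7.68.

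The L1Md sum was 2.63, 2.36 and 3.10 counts per 1000 gene counts in young MT and 2.62, 3.11, 2.28 and 3.41 in young WT. Old MT had 1.08, 1.07 and 1.07 and old WT 1.15, 1.10 and 1.13, so that every old MT library was below every old WT library. LK MT had 0.826, 0.806 and 0.782 and LK WT 0.682, 0.712 and 0.695, in the opposite order. As a ratio of group means on the log2 scale, MT to WT, L1Md was at -0.08 in young, -0.07 in old and 0.21 in LK libraries, beside replicate SDs of 0.24, 0.02 and 0.04 (log2 scale, pooled over both groups). The other L1 rows gave 0.03, -0.02 and 0.21 in the same order, with SDs of 0.28, 0.05 and 0.04. In LK cells the MT mean was above the WT mean by 15.6% for L1Md and by 15.7% for the others, about the same share. The others are mostly L1_, L1VL and Lx rows there, and the ancient L1M rows held only 9.54 to 11% of L1 counts. The L1M sum alone had means of 0.785 in LK MT and 0.682 in LK WT. These sums are a description and carry no test.

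The makeup of the L1 counts differed between the cell sets more than between genotypes. L1Md rows held 14.2 to 19.5% of L1 counts in young, 17.0 to 18.8% in old Cd11b and 10.03 to 10.9% in LK libraries. The ancient L1M rows held 28 to 32.9% in young libraries, 12.8 to 16.1% in old Cd11b libraries and 9.54 to 11% in LK libraries. Lx rows held 25.8 to 28%, 29.7 to 31.5% and 38.2 to 40.7% in the same order. A few rows carry most counts: the 10 rows with most counts held 46.5% of L1 counts in young, 65.3% in old Cd11b and 77.7% in LK libraries. First among them in every set was L1_Mus1, with 7.68 to 9.74%, 22.1 to 23.9% and 24.1 to 25.2% of L1 counts. L1 itself made up 13.6 to 14.5% of TE counts in young, 16.8 to 19.4% in old Cd11b and 19.9 to 23.9% in LK libraries.

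The plot of the 6 L1Md rows shows each of them in every library. L1Md_F2 was the most counted of them, at 1430, 1331 and 1727 CPM in young MT and 1382, 1430, 1264 and 1928 CPM in young WT. In old Cd11b cells L1Md_F2 stood at 461, 449.8 and 443 CPM in MT and 474, 458 and 465 CPM in WT, and in LK cells at 345, 341 and 342 CPM in MT and 272, 281 and 277 CPM in WT. In CPM the old groups overlapped for L1Md_F2, while with TMM factors every old MT library was below every old WT library, and the LK groups lay apart on both scales. CPM values depend on how many copies a subfamily has and how long they are, so the order of subfamilies by CPM is not an order of activity.

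L1Md_T, the name given to the Tf lineage, was at 539, 436 and 596 CPM in young MT and at 574, 1092, 459 and 636 CPM in young WT. WT replicate 2 alone is high there, and it is not the highest library for any other L1Md row. In old Cd11b cells L1Md_T was at 320.0, 342 and 347 CPM in MT and 371, 333 and 344 CPM in WT. LK cells had 148, 136 and 139 CPM in MT and 111, 124 and 123 CPM in WT, so that the LK groups did not overlap.

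L1Md_A held 247 to 333 CPM in young MT, 246 to 358 in young WT, 135 to 142 in old MT, 138 to 147 in old WT, 137 to 154 in LK MT and 135 to 142 in LK WT. L1Md_F3 held 298 to 382, 256 to 420.5, 121 to 136, 132 to 159, 155 to 171 and 147 to 155 CPM in the same order of groups. In CPM the old and the LK groups overlap for L1Md_A, and the LK groups meet near 155 CPM for L1Md_F3, while with TMM factors the LK groups of both rows lay apart, with MT higher. L1Md_F, an older subfamily, held 38.7 to 45.2, 33.6 to 53.3, 10.2 to 12.8, 12.4 to 14.2, 6.87 to 7.80 and 7.80 to 9.42 CPM. L1Md_Gf was the least counted, at 11 to 12.9, 8.28 to 15.0, 4.44 to 4.99, 4.34 to 6.48, 1.44 to 1.93 and 1.01 to 1.82 CPM.

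**Figure D2:**
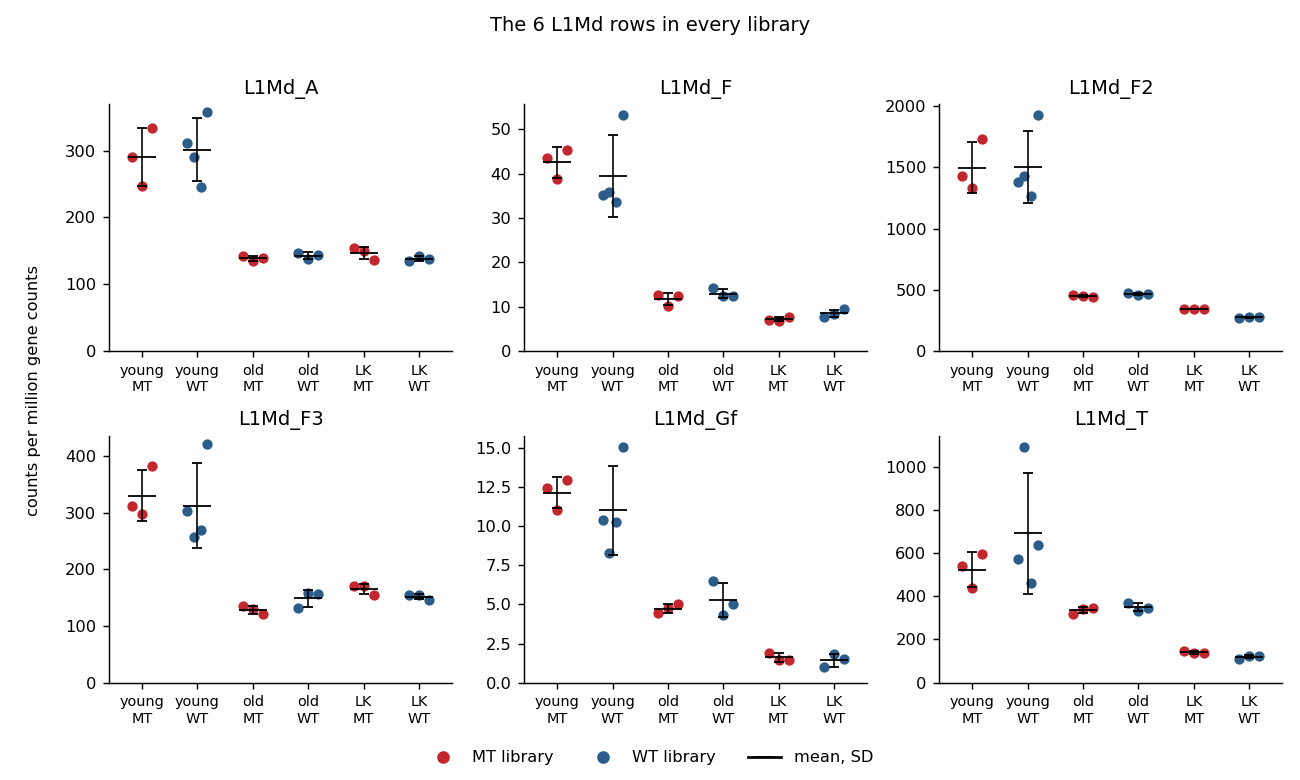
Level of each L1Md row (vertical axis, CPM, from 0) in the libraries of the 6 groups (horizontal axis), with the mean and SD of each group in black. All 6 rows are highest in the young groups, and in LK cells MT and WT separate for L1Md_F2 and L1Md_T.

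In LK cells L1 counts, scaled to gene counts, were higher in MT than in WT. The edgeR quasi-likelihood test, with Benjamini-Hochberg adjustment over all TE subfamilies tested and a call at an adjusted p under 0.05, called 41 of the 121 L1 rows that passed the filter on low counts. Of these, 39 rose and 2 fell. Over all 814 TE subfamilies tested, 20% were called, 15.2% higher and 4.79% lower, while among L1 rows 32.2% were called higher and 1.65% lower. The median log2 fold change (MT against WT) of the L1 rows was 0.20, with 95 of 121 above 0, beside 0.08 over all TE subfamilies, with 481 of 814 above 0. On levels scaled with TMM factors, the scale of every count of groups that do not overlap, MT and WT lay apart for 62 L1 rows with MT higher and for 1 with MT lower, and over all TE subfamilies for 26.8% and 8.23%. The risers were small in size, from 0.23 to 0.82 on the log2 scale with a median of 0.37.

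Each name group held called rows. Among L1Md rows 2 of 6 rose, among L1_ and L1VL rows 5 of 12, among Lx rows 8 of 21 and among L1M rows 22 of 76, with 2 L1M rows lower. The 1 L1P row and 1 of 5 HAL1 and other rows rose, the last a share close to that of all TE subfamilies. With replicates 2 and 3 of each group summed, the 6 called rows held no L1Md and no Lx row. Medians on the log2 scale were 0.17 for L1Md, 0.21 for L1_ and L1VL, 0.20 for Lx and 0.20 for L1M, and all 21 Lx rows were above 0. They also differed little by abundance, with 0.19 over the 31 rows under an average of 100 counts, 0.20 over the 55 rows from 100 to 1000 counts and 0.20 over the 35 rows above. Other classes had medians of -0.04 for SINE, -0.05 for DNA and 0.09 for LTR subfamilies, and of -0.07 for LINE subfamilies other than L1. Whether these medians differ was not tested. The sums went another way than these medians. Per 1000 gene counts SINE was also higher in every LK MT library, at 12.8 to 13.4 against 11.5 to 12.5 in WT. LTR was lower in every LK MT library, at 10.1 to 10.2 against 10.5 to 11.7. The sums of DNA subfamilies and of LINE subfamilies other than L1 overlapped.

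L1Md_F2 rose in LK MT cells by 0.34 ± 0.07 on the log2 scale (SE, n = 3 and 3, edgeR adjusted p = 0.00159) and L1Md_T by 0.27 ± 0.07 (edgeR adjusted p = 0.00792). Replicates 2 and 3 of each LK group were closer to each other over all genes than to replicate 1, while over L1 rows this held in WT only. With replicates 2 and 3 of each group summed, neither row was called (edgeR adjusted p = 0.0971 and 0.126). In 15 alternative analyses L1Md_F2 was called in 13 and L1Md_T in 11, with adjusted p up to 0.166 and 0.38. The other L1Md rows were not called, at 0.19 for L1Md_Gf, 0.16 for L1Md_F3, 0.12 for L1Md_A and -0.20 for L1Md_F. L1Md_F was the one L1Md row with a lower mean in LK MT. L1Md_Gf took a value below 0 without LK WT replicate 1, at -0.05.

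Lx, the namesake of its group, stood at 469, 544 and 482 CPM in LK MT and 397, 367 and 344 CPM in LK WT. It rose by 0.47 ± 0.08 on the log2 scale (edgeR adjusted p = 0.000585). Lx3B stood at 1279, 1249 and 1281 CPM in LK MT and 1174, 1003 and 1017 CPM in LK WT, a rise of 0.29 ± 0.08 (edgeR adjusted p = 0.0177). Both rows had every MT library above every WT library. Lx5 (0.28, edgeR adjusted p = 0.0184) and L1_Mus3 (0.23, edgeR adjusted p = 0.0241) were also called, while L1_Mus1 (0.20, edgeR adjusted p = 0.0785) and L1_Mus2 (0.17, edgeR adjusted p = 0.166) were not. Of the 15 alternative analyses, 13 called Lx, while Lx3B, Lx5 and L1_Mus3 were each called in 7, with adjusted p up to 0.266, 0.274 and 0.392.

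Among called rows with an average of at least 50 counts in the higher group, the 5 with the largest rise were all ancient L1M rows. L1M4b was at 3.27, 3.71 and 3.77 CPM in LK MT and 2.87, 1.6 and 1.73 CPM in LK WT, a log2 fold change of 0.82 ± 0.18 (edgeR adjusted p = 0.00543). L1MA4A was at 11.8, 13.0 and 12.6 CPM in MT and 8.11, 7.50 and 6.97 CPM in WT, a log2 fold change of 0.76 ± 0.10 (edgeR adjusted p = 3.85e-05). L1MA5A was at 3.56, 4.11 and 3.42 CPM in MT and 2.20, 2.27 and 2.29 CPM in WT, a log2 fold change of 0.75 ± 0.13 (edgeR adjusted p = 0.000616). For these 3 rows the groups did not overlap, and L1MA4A and L1MA5A were called in all 15 alternative analyses of this comparison, with adjusted p up to 0.025 and 0.0467. L1M3e (0.75 ± 0.23, edgeR adjusted p = 0.0238) was called in 6 of the 15, L1M4b in 11 and L1M4a1 (0.72 ± 0.15, edgeR adjusted p = 0.00313) in 13.

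The rows that fell were L1ME3E and L1MDb. L1ME3E was at 2.87, 1.66 and 1.6 CPM in LK MT and 2.77, 4.14 and 4.21 CPM in LK WT, a log2 fold change of -0.83 ± 0.21 (edgeR adjusted p = 0.0157). Replicates 1 of the 2 genotypes are alike there, and the fall lies in replicates 2 and 3. L1MDb was at 1.38, 1.61 and 1.29 CPM in MT and 1.55, 2.56 and 2.51 CPM in WT, a log2 fold change of -0.59 ± 0.19 (edgeR adjusted p = 0.0313), and its groups overlapped as well. Of the 15 alternative analyses, 9 called L1ME3E and 7 called L1MDb.

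**Figure D3:**
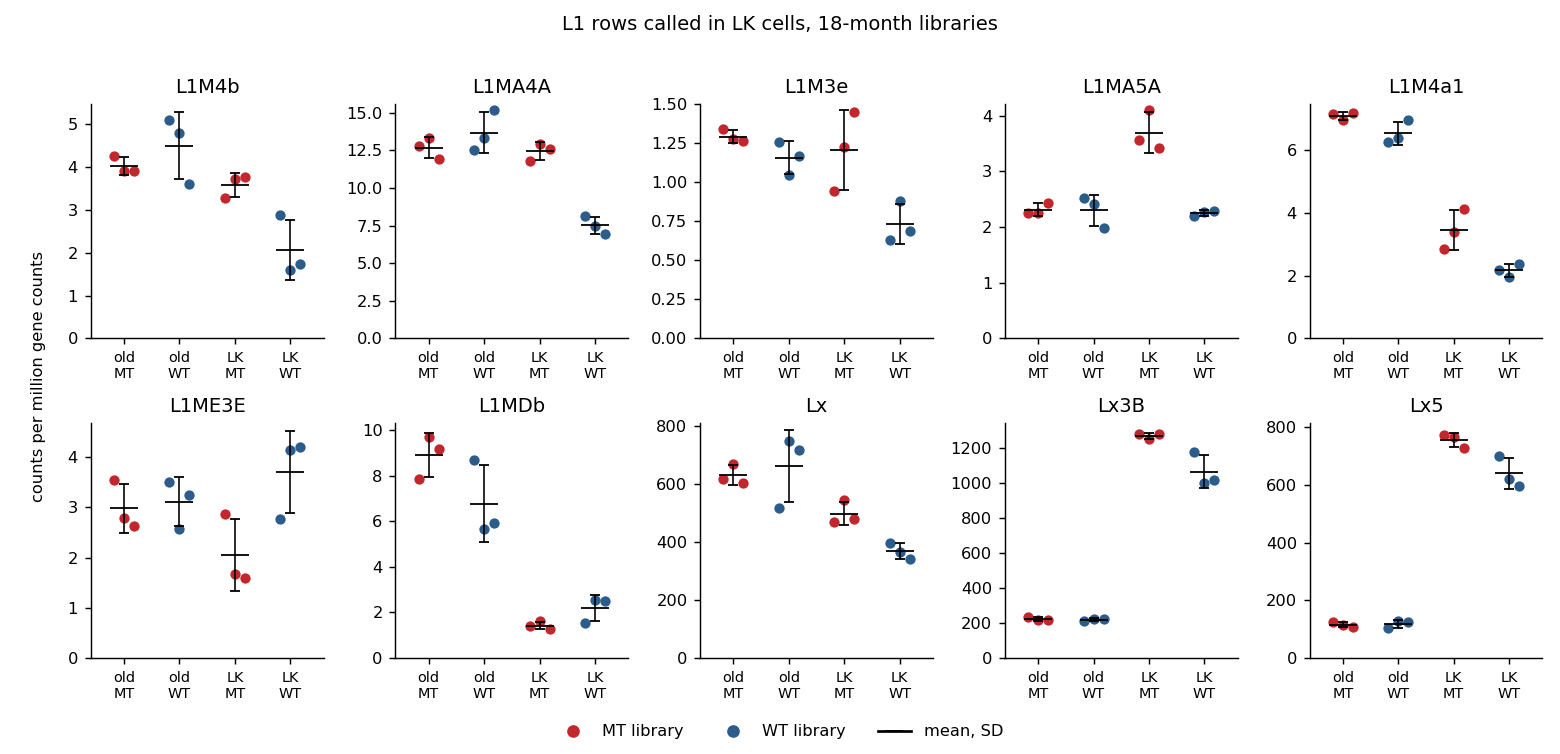
Level of 10 L1 rows called in LK cells (vertical axis, CPM, from 0) in the 4 groups of 18 months (horizontal axis), with the mean and SD of each group in black. L1MA4A and L1MA5A separate MT from WT in LK cells and overlap in old Cd11b cells, and L1ME3E and L1MDb overlap in LK cells.

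How many L1 rows were called depended on single libraries and on the fit, and the share of all TE subfamilies called moved along. Without LK WT replicate 2 the count was 11 (4.96% of TE subfamilies), without LK WT replicate 3 it was 14 (6.74%), without LK MT replicate 2 it was 16 (6.27%) and without LK MT replicate 3 it was 17 (10.4%), all of them rises. Without LK MT replicate 1 the count was 32, 30 higher and 2 lower (16.2%), and without LK WT replicate 1 it was 46, 38 higher and 8 lower (31.3%). With replicates 2 and 3 only it was 50, 44 higher and 6 lower (35.2%), with them summed it was 6, all higher (1.54%), and in a fit of all 19 libraries it was 7, 6 higher and 1 lower (2.16%). Other values moved with genotype in the same libraries. The summed level of 7 neutrophil and monocyte markers was 2457 to 4802 CPM in LK MT and 1613 to 2193 CPM in LK WT, with S100a8 and S100a9 higher in every MT library and Csf1r lower, at 67.5 to 79.4 against 86.1 to 89.0 CPM. The sum of 5 T and NK cell markers was 231 to 288 and 191 to 224 CPM, most of it Nkg7 (225 to 275 and 187 to 216 CPM). Cd8a was also higher in every MT library (3.08 to 5.36 and 1.88 to 2.39 CPM), while Cd3d, Cd3e and Cd3g overlapped. The sum of 6 progenitor markers was 10848 to 12207 and 10190 to 10574 CPM, most of it Mpo (10219 to 11692 and 9549 to 9969 CPM). Flt3 (26.8 to 34.6 and 45.4 to 45.5 CPM) and Cd34 (161 to 182 and 186 to 192 CPM) were lower in MT, and Kit, Meis1 and Gata2 overlapped. No marker of these 3 lists was at 0. Malat1 was at 529 to 586 CPM in LK MT and 394 to 425 CPM in LK WT, and Kcnq1ot1, a nuclear antisense transcript, at 32.9 to 37.2 and 18.8 to 22 CPM. The nuclear transcript Neat1 overlapped, at 85.1 to 111 and 90.7 to 92.1 CPM. Their part in the L1 result was not tested.

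In old Cd11b cells the same comparison called 1 of 124 L1 rows, L1MEi, beside 4 of 873 TE subfamilies (0.458%). L1MEi is an ancient row with 115, 97 and 86 counts in MT and 60, 18 and 56 in WT, and a log2 fold change of 1.15 ± 0.22 (edgeR adjusted p = 0.0239). Without MT replicate 1, 2 or 3 that call was lost, with adjusted p over all 15 alternatives from 4.24e-07 to 0.221. The median log2 fold change was -0.01 over the L1 rows and -0.03 over all TE subfamilies. MT and WT did not overlap for 4 L1 rows with MT higher and 13 with MT lower, beside 4.24% and 13.2% of all TE subfamilies.

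The 6 L1Md rows were all below 0 in old MT cells, from -0.06 for L1Md_A to -0.23 ± 0.08 for L1Md_F3 (edgeR adjusted p = 0.35), and none was called. L1Md_F3 stood at 136, 130.4 and 121 CPM in MT and 132, 159 and 157 CPM in WT. Old WT replicate 1 lies inside the MT range for L1Md_F3 and apart from the other WT libraries. The counts of called rows depend on it: without it 23 L1 rows were called, 12 higher and 11 lower, beside 15.2% of 880 TE subfamilies. With replicates 2 and 3 alone 29 were called, 15 higher and 14 lower, beside 22% of 863. Old WT replicates 2 and 3 are close, with a chi-square per degree of freedom over L1 rows of 2.05, against 41.8 and 44.0 with replicate 1. The labels do not say that they are separate animals, so the spread behind these 2 counts may be technical.

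In young Cd11b cells no L1 row of 129 was called, and no TE subfamily of 974 (0%). At an unadjusted p under 0.05 edgeR had 1 L1 row and DESeq2 0, and DESeq2 also called 0. The median log2 fold change was 0.00 over the L1 rows, with 64 of 129 above 0, and -0.04 over all TE subfamilies. No L1 row separated the groups in either direction, beside 0.205% of TE subfamilies with MT higher and 0.616% with MT lower. Single values were imprecise: the standard errors of the L1Md rows were 0.23 to 0.24 on the log2 scale, against 0.07 to 0.20 in LK cells. The most distant L1Md row was L1Md_T, at -0.44 ± 0.24 (edgeR adjusted p = 0.9999), where WT replicate 2 is the high library. Without that library L1Md_T was at -0.11. With the 5 libraries that hold Xist alone, 0 rows were called as well.

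**Figure D4:**
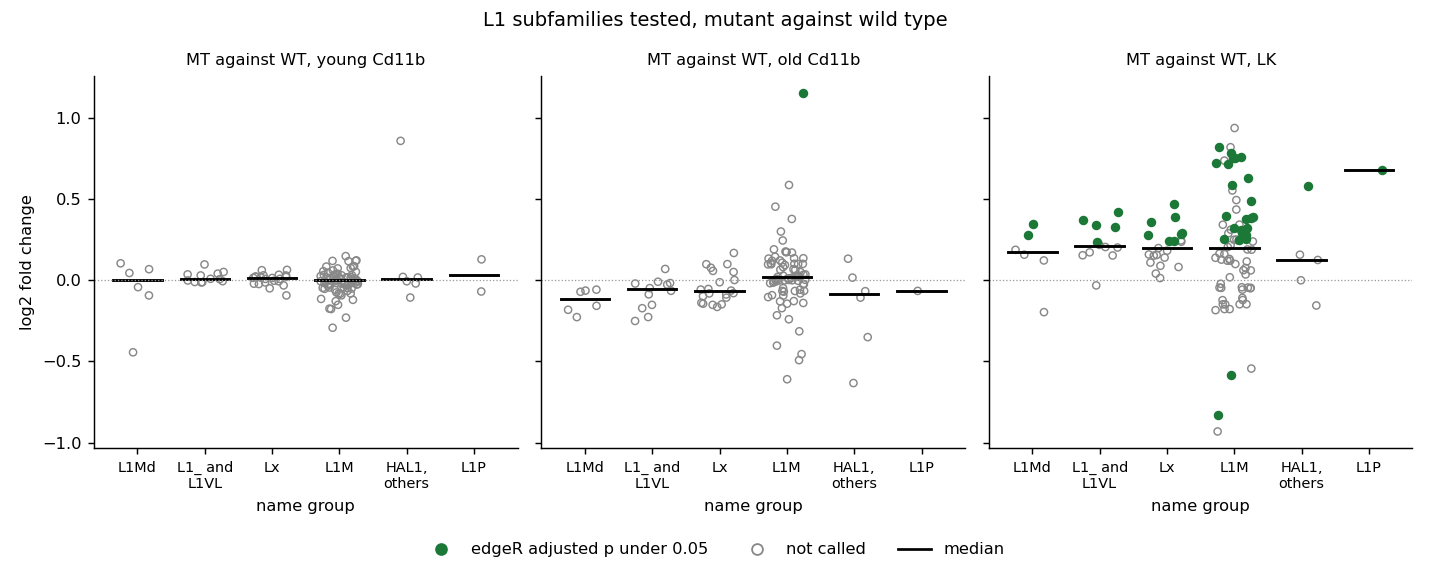
Log2 fold change MT against WT (vertical axis) of every L1 row tested, by name group (horizontal axis), in young Cd11b, old Cd11b and LK cells, with called rows filled and the median of each name group as a bar. Called rows are 0 of 129 in young, 1 of 124 in old and 41 of 121 in LK cells, where all name groups have a median above 0.

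Whether the genotype difference itself differed between cell sets was tested with interaction terms, on libraries that these comparisons share. Between LK and old Cd11b cells the difference of the log2 fold changes was called for 26 of 126 L1 rows, 25 of them higher in LK, beside 12.5% of 889 TE subfamilies, 9.9% higher and 2.59% lower. Of the 26, 23 were also called within LK cells, and 23 were above 0 in LK and below 0 in old cells. L1Md_F2 had a difference of 0.40 ± 0.10 (edgeR adjusted p = 0.00931), L1Md_F3 of 0.38 ± 0.11 (edgeR adjusted p = 0.0233) and L1Md_T of 0.34 ± 0.11 (edgeR adjusted p = 0.0339). Among the other rows L1M4b reached 0.98 ± 0.24, L1MA4A 0.88 ± 0.14, L1M2c 0.84 ± 0.24, L1MA5A 0.75 ± 0.19, Lx 0.55 ± 0.16 and MusHAL1 0.64 ± 0.15, while L1MDb was at -0.97 ± 0.27. Of 19 alternative analyses, 18 called L1Md_F2, 13 L1Md_F3 and 12 L1Md_T. Without old MT replicate 3 the count was 11 (5.89% of TE subfamilies) and without old WT replicate 3 it was 13 (6.93%), and edgeR on all 19 libraries called 0 (0.206%), with 24 at an unadjusted p under 0.05.

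Between old and young Cd11b cells no L1 row of 129 had a called difference of the genotype effect, and no TE subfamily of 971 (0%). At an unadjusted p under 0.05, edgeR and DESeq2 each had 3 L1 rows, and DESeq2 called 0. The L1Md rows ranged from -0.28 for L1Md_Gf to 0.37 for L1Md_T on the log2 scale, with standard errors of 0.26 to 0.29, and without young WT replicate 2 L1Md_T was at 0.043.

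Among the WT libraries, old Cd11b cells had lower L1 levels than young ones in 125 of 129 rows, and no row was called higher. Over all 962 TE subfamilies 91.5% were called, 1.98% higher and 89.5% lower, so nearly the whole table moved with L1. The groups did not overlap for 125 L1 rows with old lower and 0 with old higher, beside 89% and 2.39% of all TE subfamilies. The median log2 fold change, old against young, was -2.33 for L1 rows and -2.12 for all TE subfamilies. It was -0.81 for the 6 L1Md rows, -1.34 for Lx, -1.66 for L1_ and L1VL, -2.32 for HAL1 and others and -2.61 for L1M. The 2 L1P rows had a median of -2.90. Other classes had medians of -2.92 for DNA, -1.96 for SINE and -1.83 for LTR subfamilies, and of -2.35 for LINE subfamilies other than L1. The rows not called were L1_Mus1 (0.14), Lx (-0.02) and Lx3B (-0.25) among the highly counted ones and HAL1_SS (0.07), which is named here because it completes the 4.

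Of the L1Md rows, L1Md_F2 was lower in old cells by -1.43 ± 0.22 and L1Md_F by -1.34 ± 0.23 on the log2 scale (edgeR adjusted p = 8.85e-11 and 1.18e-08), a direction that holds per gene count and turns for all 6 L1Md rows with TE factors. L1Md_A, L1Md_F3, L1Md_Gf and L1Md_T lay between -0.82 and -0.73, all with an edgeR adjusted p of at most 0.00116. L1Md_T rests in part on young WT replicate 2, its high library: without it the value was -0.40 (edgeR adjusted p = 0.072). It was also not called without young WT replicate 4 (edgeR adjusted p = 0.121), and 4 of 14 alternative analyses in all did not call it, with adjusted p up to 0.235. Among called rows with an average of at least 50 counts in the higher group, the largest falls were those of L1M8 (-4.26 ± 0.37), L1M3de (-4.02 ± 0.44), L1MCc (-3.94 ± 0.36), L1MA9 (-3.58 ± 0.25) and L1MEa (-3.55 ± 0.30). L1MA9 is the best counted of these, with 106, 78.0, 83.6 and 138 CPM in young WT replicates 1 to 4 and 8.02, 6.49 and 6.61 CPM in old WT, and no library of one group comes near the other. L1M8 rests on 11, 4 and 11 counts in old WT and L1M3de on 3, 3 and 10.

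The size of this difference depends on what the counts are scaled to. With library sizes and factors from the TE counts themselves, the median over L1 rows was -0.26, with 43 rows called higher and 68 lower. Over all TE subfamilies the median with these factors was -0.025, and the share called is not given here. On that scale all 6 L1Md rows were above 0, from 0.64 for L1Md_F2 to 1.29 for L1Md_F3, as were Lx (2.05), Lx3B (1.78), Lx5 (1.34), L1_Mus2 (1.32) and L1_Mus3 (0.22). Within the TE counts the L1Md rows thus took a larger part in old than in young WT cells, while per gene count they took a smaller one. Beside this stand the 7SK, Malat1 and Xist values given above, and Kcnq1ot1, which was at 113 to 188 CPM in the young and 2.55 to 3.64 CPM in the old Cd11b libraries. Marker sums differed as well between the WT libraries. Progenitor markers summed to 2570 to 4528 CPM in young and 634 to 663 CPM in old libraries, B cell markers to 96.5 to 217 and 38.3 to 54.5 CPM, and neutrophil and monocyte markers to 25359 to 34022 and 70755 to 88873 CPM, with no marker of these lists at 0. Age, kind of library, sex and cell makeup cannot be told apart in this difference.

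LK and old Cd11b cells are both of 18 months, and most L1 rows were lower in LK. Among WT libraries 114 of 124 L1 rows were called, 4 higher and 110 lower in LK, beside 86.2% of 857 TE subfamilies, 5.25% higher and 81% lower. The groups did not overlap for 112 L1 rows with LK lower and 4 with LK higher, beside 80.9% and 5.37% of all TE subfamilies. The median log2 fold change, LK against old Cd11b, was -1.35 for L1 rows and -1.27 for all TE subfamilies. Part of it comes from the TMM factors: without factors the L1 median was -0.63 with 9 rows higher and 80 lower, and with TE factors it was -0.08 with 37 higher and 41 lower. Over all TE subfamilies the median moved along, to -0.53 without factors and 0.012 with TE factors. The shares of TE subfamilies called in those fits are not given here. Values of single rows are therefore best read against the L1 median.

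Lx5 and Lx3B went the other way. Lx5 was at 103, 130 and 125 CPM in old WT and 701, 622 and 596 CPM in LK WT, and Lx3B at 209.5, 225 and 225 CPM in old WT and 1174, 1003 and 1017 CPM in LK WT. Their log2 fold changes were 1.69 ± 0.11 and 1.54 ± 0.11 (edgeR adjusted p = 7e-10 and 9.35e-10). In LK libraries Lx3B made up 15.3 to 17.3% of L1 counts and Lx5 9.35 to 10.3%, against 3.43 to 3.75% and 1.69 to 2.0% in old Cd11b libraries. L1MEd rose from 15.8, 14.3 and 14.9 CPM in old WT to 67.1, 57.8 and 57.0 CPM in LK WT (1.28 ± 0.10), and L1_Mur2 was the fourth row higher in LK (0.34 ± 0.10, edgeR adjusted p = 0.00592).

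All 6 L1Md rows were called lower in LK than in old Cd11b cells, although L1Md_A (0.49) and L1Md_F3 (0.56) were above 0 with TE factors and L1Md_F3 (0.025) also without factors. L1Md_Gf was at -2.61 ± 0.20 and L1Md_T at -2.28 ± 0.10 on the log2 scale, beyond the L1 median. L1Md_F2 (-1.48 ± 0.09) and L1Md_F (-1.34 ± 0.12) lay near the median, and L1Md_A (-0.78 ± 0.09) and L1Md_F3 (-0.71 ± 0.10) were less far down than most L1 rows. Within the same limit of 50 counts, the farthest falls were those of L1M3d (-5.90 ± 0.29), L1MEb (-4.74 ± 0.24), L1M2a (-3.61 ± 0.29) and Lx3C (-2.70 ± 0.10). L1M3d had 290, 129 and 253 counts in old WT and 3, 7 and 4 in LK WT, so its fold rests on few counts, while Lx3C had 1952, 1399 and 2296 counts in old WT and 372, 439 and 302 in LK WT.

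**Figure D5:**
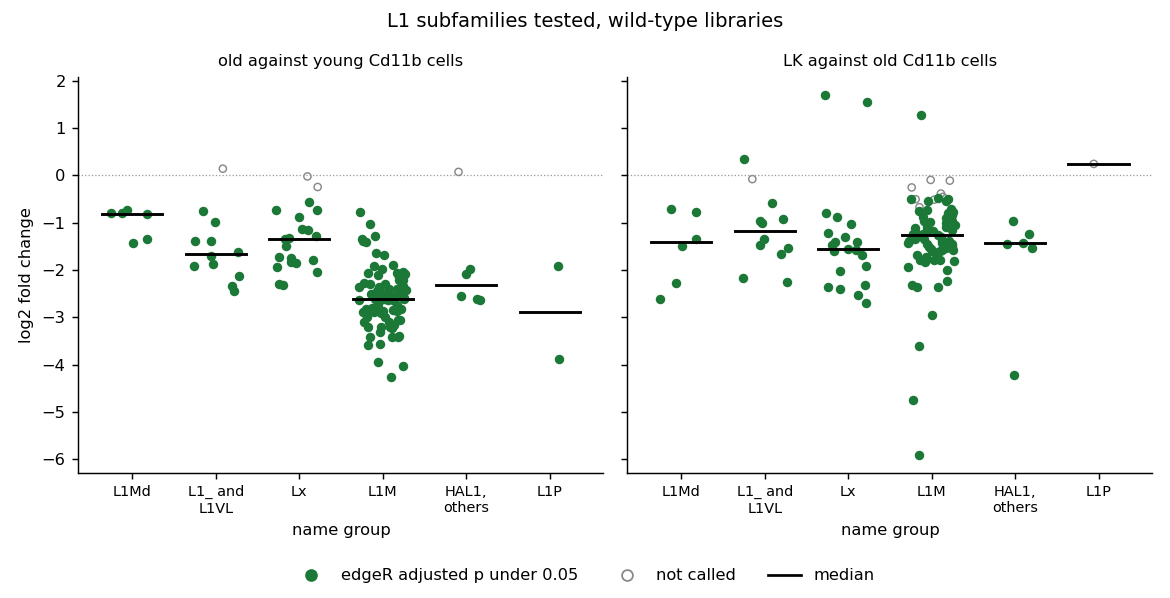
Log2 fold change (vertical axis) of every L1 row tested, by name group (horizontal axis), for old against young Cd11b cells and LK against old Cd11b cells among WT libraries, with called rows filled and the median of each name group as a bar. The L1M row L1M8 is the farthest down in old against young cells, and Lx5, Lx3B and L1MEd stand above 1 in LK cells.

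By the mean of the MT and WT group levels in CPM, 100 of the 131 rows listed in every set were ordered young, old Cd11b, LK from high to low. The order was young, LK, old Cd11b in 28 rows, and 3 rows were highest in LK. L1Md_A and L1Md_F3 belong to the 28 and the other L1Md rows to the 100. For L1Md_A and L1Md_F3 the LK and old Cd11b levels overlap, so their order is not beyond the spread. With TMM factors both rows were lower in LK than in old Cd11b cells among WT libraries (-0.78 and -0.71).

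Genes that act on L1 were read from a list of 30, covering the HUSH complex, H3K9 methylation, its readers, DNA methylation and factors that act on L1 RNA or cDNA. Of these, 29 were tested. In LK cells 16 of 29 were called, 14 lower and 2 higher in MT, beside 29.8% of 14130 genes, and the median log2 fold change of the list was -0.14 against 0.02 over all genes. Morc2a, whose protein works with HUSH, was at 62.3, 60.2 and 62.0 CPM in LK MT and 72.9, 77.5 and 81.6 CPM in LK WT, a fall of -0.29 ± 0.05 (edgeR adjusted p = 0.00693). Dnmt1, the maintenance DNA methyltransferase, was at 434, 397 and 408 CPM in MT and 489.9, 573 and 577 CPM in WT, a fall of -0.37 ± 0.06 (edgeR adjusted p = 0.00757). Groups did not overlap for either gene. Of the HUSH genes tested, Mphosph8 went the other way in LK MT, a rise of 0.35 ± 0.07 (edgeR adjusted p = 0.0094), and Pphln1 was not called (-0.03).

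Zc3hav1, which encodes the RNA-binding antiviral protein ZAP, fell by 0.39 on the log2 scale (edgeR adjusted p = 0.00765) and Wiz, a partner of EHMT1 and EHMT2, fell by 0.28 (edgeR adjusted p = 0.00937). Rnaseh2c, a subunit of RNase H2, rose by 0.33 (edgeR adjusted p = 0.00881). With replicates 2 and 3 summed, and with a replicate block, 0 of the 29 were called (13 and 17 at an unadjusted edgeR p under 0.05), so all of these calls were lost. The count of called genes was 5 without LK MT replicate 2 or without LK WT replicate 2, 6 without LK MT replicate 3 and 7 without LK WT replicate 3. In old Cd11b cells 0 of 29 were called (0.336% of 13398 genes), with 7 by edgeR and 8 by DESeq2 at an unadjusted p under 0.05, and 2 and 3 were called without MT replicate 1 and without WT replicate 1. In young Cd11b cells 0 of 29 were called (0% of 13755 genes), with 0 at an unadjusted p under 0.05 by edgeR. The share of all genes called is not given here by direction or for the alternative fits. The counts of control genes by direction and in those fits can therefore not be read as particular to the list.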

How the data were processed

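Libraries that keep strand were made from 200 ng of column-purified total RNA, per the labels' protocols. Deposited were the authors' whole-number counts, by gene symbol and by TE subfamily, for each of 19 libraries in 6 groups. The submitters' processing notes name STAR, HTSeq, DESeq2 and mm10. How strand and reads with several matches were treated, and with which annotation, is not given in the sources used here, and a subfamily's count can hold reads shared with its relatives or with host genes. The TE header of young MT replicate 3 carries a name of another form; its label was followed.

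Levels are CPM (per 1000000 gene counts) or counts per 1000 gene counts of the library, without factors. TE counts were tested with edgeR 4.0.16 (R 4.3.3, filterByExpr, robust quasi-likelihood, Benjamini-Hochberg adjustment over all TE subfamilies or all genes tested), with library sizes and TMM factors computed on gene counts. In all, 7 comparisons were fitted, each on its own libraries. A standard error is the log2 fold change divided by the square root of F. Alternatives were RLE factors, no factors, TE factors, no low-count filter, DESeq2 1.42.0, a replicate block, all 19 libraries in 1 fit, replicates 2 and 3 summed at 18 months, and leaving out each library. Fits on replicates 2 and 3 only, and on the 5 young libraries with Xist, were added after the data were seen. Figures were drawn with matplotlib 3.10.9. Fits were tested on simulated data.

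Named rows are all L1Md rows, the 6 other L1 rows with the highest mean level, and per comparison up to 5 called rows per direction with the largest change and an average of at least 50 counts in the higher group. Control genes named are up to 5 called ones by smallest p. Mphosph8 and Pphln1 are named as well, to complete the HUSH genes tested. Members and lists were chosen with earlier results of these data known. Gene counts were between 26251822 and 68260809 per library. Rows whose median was under 50 counts numbered 8 of 133 in young, 22 of 131 in old Cd11b and 30 of 132 in LK libraries, and their folds are the least precise. Over L1 rows the chi-square per degree of freedom between replicates was 2.05 to 135, above sampling noise in every pair, so no library was treated as a repeat deposit of another. Whether 2 libraries came from the same animal was not tested.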

Additional observations from a re-analysis of the deposited data

Results flagged for a closer look

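In the 4 young WT libraries, replicate 4 stood apart from the others for L1Md_F, at 53.3 CPM against 33.6 to 35.8 CPM, and for L1_Mus1, at 1845 CPM against 1510 to 1544 CPM. These were 2 of 15 sets of values examined for a lone extreme library, and chance marks about 1 set in 20. Young WT replicate 4 is one of the 2 young libraries with Ddx3y and without Xist, and whether sex has a part in its L1 level was not tested.

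The genotype difference differed between LK and old Cd11b cells for 26 L1 rows by the interaction test, beside 12.5% of 889 TE subfamilies. Among the named rows the difference of log2 fold changes, LK minus old Cd11b, was 0.40 for L1Md_F2, 0.38 for L1Md_F3, 0.34 for L1Md_T and 0.55 for Lx. It was 0.98 for L1M4b, 0.88 for L1MA4A, 0.84 for L1M2c, 0.75 for L1MA5A, 0.64 for MusHAL1 and -0.97 for L1MDb. L1Md_F3 was called in neither cell set alone, and its difference joins 0.16 in LK cells with -0.23 in old cells.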

How the results depend on the processing

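Without a library the number of called L1 rows ranged from 11 to 46 in LK cells (4.96 to 31.3% of TE subfamilies). It ranged from 0 to 23 in old Cd11b cells (0 to 15.2%) and from 11 to 38 for genotype by cell type (5.89 to 19.4%). That of control genes ranged from 5 to 20 in LK and from 0 to 3 in old cells, and the LK median from 0.15 to 0.22. The LK count was 21 with TE factors (14.3% of TE subfamilies), 7 in the fit of all 19 libraries (2.16%) and 6 with replicates 2 and 3 summed (1.54%). The LK median was 0.12 with TE factors. With replicates 2 and 3 only, 29 L1 rows (beside 22% of TE subfamilies) and 16 control genes were called in old cells and 25 control genes in LK cells. Control genes called in LK were 10 in the fit of all 19 libraries and 0 with replicates summed, where 13 had an unadjusted edgeR p under 0.05. The shares of all genes called in the fits behind these control gene counts are not given here. Genotype by cell type gave 16 rows without factors (9.28% of TE subfamilies). It gave 0 with all 19 libraries (0.206%), with 24 L1 rows at an unadjusted edgeR p under 0.05. The median for old against young was -0.26 with TE factors, and that for LK against old was -0.63 without factors, -0.075 with TE factors and -1.25 with all 19 libraries. The other counts that were run, taken over both directions together, stayed within 1.5 times the reported one. By direction, the counts for old against young and for LK against old moved further with TE factors, as given above. Depth limits ancient rows most, since 30 of 132 rows have a median under 50 counts in LK libraries.

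The labels do not say whether replicate numbers pair the libraries, and so few libraries per group cannot decide it. Over L1 rows, the deviations of same-numbered MT and WT libraries correlated at -0.25 to -0.04 (LK), -0.10 to 0.19 (old) and -0.14 to 0.34 (young). Over genes the ranges were -0.25 to -0.03 (LK), 0.00 to 0.01 (old) and -0.25 to 0.33 (young). With the replicate block the called L1 rows were 33 in LK (17.6% of TE subfamilies), 1 in old (0.458%) and 0 in young cells. They were 19 (9.34%) and 0 for the interactions with cell type and age, 125 for old against young and 115 for LK against old. Where no share of TE subfamilies stands beside a count, it is not given here. The called control genes in LK were 0 (17 at an unadjusted edgeR p under 0.05). Over L1 rows, MT libraries that correlated best with their own number were 0 of 3 in LK and 1 of 3 in old and in young cells. Over genes they were 0 of 3 in LK, 1 of 3 in old and 2 of 3 in young cells. Under the block L1Md_F2 was 0.085 in young cells, L1Md_A -0.044 for genotype by age and Lx 0.047 for old against young.

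Among single rows, 48 values had the opposite sign, and the cause was not tested. For old against young, TE factors gave 1.25 for L1Md_A, 0.73 for L1Md_F, 0.64 for L1Md_F2, 1.29 for L1Md_F3, 1.29 for L1Md_Gf, 1.27 for L1Md_T, 2.05 for Lx, 0.22 for L1_Mus3, 1.78 for Lx3B, 1.32 for L1_Mus2 and 1.34 for Lx5, and L1_Mus1 was -0.12 without factors. For LK against old, no factors gave 0.025 for L1Md_F3, 0.15 for L1_Mus1 and 0.65 for L1_Mus2, TE factors gave 0.49 for L1Md_A, 0.56 for L1Md_F3, 0.68 for L1_Mus1, 0.26 for L1_Mus3 and 1.18 for L1_Mus2, and all 19 libraries gave 0.013 for L1_Mus2. With replicates 2 and 3 only, L1Md_Gf was 0.028 and L1Md_T 0.008 in old cells and L1Md_Gf -0.16 in LK cells. Leaving out 1 library at a time gave ranges across 0 in young cells of -0.228 to 0.02 for L1Md_A, -0.001 to 0.239 for L1Md_F, -0.182 to 0.095 for L1Md_F2 and -0.096 to 0.215 for L1Md_F3, and in LK cells of -0.052 to 0.407 for L1Md_Gf. Such ranges were -0.072 to 0.171 for L1Md_A and -0.159 to 0.118 for L1Md_F2 (genotype by age), -0.132 to 0.042 for L1Md_F (genotype by cell type), -0.12 to 0.133 for Lx (old against young) and -0.278 to 0.048 for L1_Mus2 (LK against old). Of the other single-row values, 114 lost and 15 gained a call.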

Other observations

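Over all genes, replicates 2 and 3 of an LK group differed less from each other (chi-square per degree of freedom 4.52 in MT and 2.92 in WT) than either did from replicate 1 (18.7 to 25.2). The same held in old Cd11b cells, with 6.39 in MT and 4.71 in WT for replicates 2 and 3 against 13.7 to 44.55 for pairs with replicate 1. Over L1 rows it held in the WT groups but not in the MT groups. There the value for replicates 2 and 3 of LK MT was 8.86, beside 5.37 and 7.06 for pairs with replicate 1. For old MT it was 3.92, beside 6.47 and 3.65. With replicates 2 and 3 of each LK group summed to 1 sample, edgeR called 6 L1 rows, beside 1.54% of 843 TE subfamilies. All were higher in MT: L1MA4A, L1MA5A, L1MEd, L1MEg, L1_Mur3 and MusHAL1. They are named here after their values were seen. L1MEd was at 87.9, 92.8 and 93.5 CPM in LK MT and 67.1, 57.8 and 57.0 CPM in LK WT, and at 13.9 to 16.1 CPM in the old Cd11b libraries. Its log2 fold change with the summed replicates was 0.57 ± 0.11 (edgeR adjusted p = 0.025). MusHAL1, an L1-derived row, was at 10.3, 8.80 and 10.02 CPM in LK MT and 6.10, 7.25 and 6.62 CPM in LK WT, a log2 fold change of 0.61 ± 0.13 with the summed replicates (edgeR adjusted p = 0.0406). These rows come from different name groups, with 4 from L1M and 1 each from L1_ and L1VL and from HAL1 and others.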
